A study of Rattus norvegicus with 6 samples.

Results

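The peroxiredoxin and thioredoxin genes of the rat choroid plexus were followed from the late fetus to the adult. The set comprised 10 genes taken by symbol and not by a cut on their values, although earlier results of these data were known. It held the peroxiredoxins Prdx1, Prdx2, Prdx3, Prdx4, Prdx5 and Prdx6, the thioredoxins Txn1 and Txn2, the thioredoxin reductase Txnrd1 and the glutaredoxin Glrx. Of these, 9 had a probe set annotated to that gene alone, among 14217 genes so represented on the array, and the same 9 were among the 10334 genes tested, for which the mean of some stage reached 100 intensity units. Prdx1 had no probe set of its own. The one that carries its name is shared with Prdx1l1 and read 11455 to 12610 units over the 6 arrays, so its signal could not be assigned to either gene. Where a gene had several probe sets, the one with the highest mean was used and the others were kept as a check.

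The tissue was the lateral ventricle choroid plexus of Sprague-Dawley rats, the secretory epithelium and vascular stroma that separates blood from cerebrospinal fluid. It was taken from embryos at embryonic day 19 (E19), from pups at postnatal day 2 (P2) and from adults, for which the labels give no age. The paper lists the adult rats obtained as males, beside pregnant females and females with litters, and gives no sex for embryos or pups. Sex and stage therefore cannot be told apart in comparisons with the adult. No treatment or genotype is named for any group. Each stage was represented by 2 arrays, each hybridised with RNA pooled from 6 to 10 plexuses of several animals. The paper states that adult pools held fewer animals than those of the developing stages. Every value below is thus 1 value per pool and n = 2 per stage, and the spread is that between pools rather than between animals.

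Peroxiredoxins reduce hydrogen peroxide and organic peroxides through a reactive cysteine. Most of them are returned to the reduced state by thioredoxin, which thioredoxin reductase, a selenoprotein, recharges with electrons from NADPH. Glutaredoxins act in parallel with electrons from glutathione. The family is spread over the cell: Prdx1, Prdx2, Prdx6, Txn1, Txnrd1 and Glrx proteins work mainly in the cytosol, Prdx3 and Txn2 in mitochondria, Prdx4 in the secretory pathway, and Prdx5 in several compartments. Several peroxiredoxin and thioredoxin genes are also known targets of Nrf2, the transcription factor that binds the antioxidant response element.

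Because some of these promoters are known to carry that element, its core letters TGACNNNGC were searched on both strands of the RefSeq windows of 300 bases around each gene start, from 250 bases before it to 50 after it (assembly GRCr8). Windows were found for 9 of the 10 genes and the letters occurred in those of 4 genes, where 12.1% of all 33469 windows held them. Prdx6 had no window in the table. The stretches that hold a match are given because they show where the letters sit relative to each start. Each is written 5′ to 3′ on the strand of the gene, with the match in capitals, and all 4 matches lie on the opposite strand, so that the letters read reversed and complemented.
Prdx1 (chr5:135383761-135383789, plus strand, 135 bases before the start): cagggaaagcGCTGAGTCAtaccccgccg
Prdx4 (chrX:43878742-43878770, plus strand, 20 bases after the start): tttcgtgctcGCTTGGTCAtggaaacgtg
Prdx5 (chr1:213532010-213532038, minus strand, 1 base before the start): cctcctgtggGCAGAGTCAtctgcgggtg
Txnrd1 (chr7:22755964-22755992, minus strand, 78 bases before the start): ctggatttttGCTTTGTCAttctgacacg
The Prdx1 match overlaps the letters TGACTCA of an AP-1 site, read on the opposite strand. Each distance is that of the first letter of the match as written, so the Prdx5 match runs across the gene start. The Txnrd1 match was found in 1 of the 2 windows of that gene. A match of letters is a description of these windows and no evidence of binding. Of the 4 genes with a match, Prdx4 and Prdx5 were lower at E19 than in the adult, Txnrd1 was higher and Prdx1 could not be measured.

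Markers of choroid plexus epithelium were read at every stage. Of 12 epithelial markers 10 were represented, and only the potassium channel gene Kcnj13 was under 100 units on both arrays of a stage, at all 3 stages. Of 9 tested, 1 was higher and 3 lower at E19, and 3 were lower at P2. Here and for the lists below, the shares of all genes were 31.4% higher and 25.2% lower at E19, and 28.8% and 21.8% at P2. The summed epithelial level was 91665 to 94987 units at E19, 92874 to 98242 at P2 and, for adults, 117052 to 124638. Most of the adult rise lay in Prlr, with means of 726, 1015.5 and 15708 units in stage order, and Enpp2, with 11140, 14600 and 18939. Transthyretin (Ttr), the carrier protein made by this epithelium, read 10837 to 14847 units. Markers of other cells moved with stage. The cell cycle list was higher than in the adult for 12 of 12 genes at both E19 and P2, and its summed level was 13577 to 14213 units at E19, 12856 to 13812 at P2 and, for adults, 4476 to 4478. Endothelial markers were higher for 10 of 11 genes at both stages, with sums of 11370 to 11984, 11182 to 11891 and 2261 to 2262 units, and in the adult Pecam1, Tie1 and Vwf were under 100 units on both arrays. Fibroblast and matrix markers were higher for 7 of 9 genes at both stages, with sums of 22729 to 23020, 24038 to 27336 and 8701 to 9183 units. Mural cell markers were higher for 5 of 8 genes at E19 and 6 of 8 at P2, with sums of 3920 to 4103, 4033 to 4229 and 901 to 904 units. Of 13 macrophage and myeloid markers tested, 3 were higher and 4 lower at E19, and 7 higher and 2 lower at P2. Their sums were 4403 to 4476, 5582 to 7071 and 10056 to 10180 units. The adult sum was mostly Lyz2 (means of 954, 1704 and 6033 units in stage order) and Cd74 (141, 223 and 1664). Mrc1 went the other way, at 746 and 789 units against under 100 in the adult. Of 8 neuronal and progenitor markers tested, 1 was higher and 2 lower at E19, and 3 higher and 1 lower at P2, with sums of 4783 to 5394, 4985 to 5635 and 4590 to 4950 units. Of 6 astrocyte and oligodendrocyte markers tested, 5 were lower at E19 and 3 at P2, and 1 was higher at each, with sums of 1924 to 1951, 1707 to 2075 and 2522 to 4293 units. Myelin basic protein (Mbp) read 1989 and 656 units in the adult pools against at most 77.0 units before. In such bulk tissue, fewer cells of a type and less RNA per cell cannot be told apart, and the part of these shifts in the values below was not tested.

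Transcripts of the system were abundant at all 3 stages. Across the 9 measured genes the arrays read from 1329 to 11512 units, and no gene differed more than 1.6-fold between any 2 stages. All perinatal pools of the cytosolic Prdx2, Prdx6, Txn1 and Txnrd1 read above both adult pools, and all those of the mitochondrial Prdx3 and Txn2 and of Prdx4 read below them. This grouping was noticed in the values and has no test of its own. At E19 the differences of Prdx6, Txn1 and Prdx3 did not pass, and with arrays centred on their medians none of the first 4 genes passed at either stage and Prdx6 at E19 changed sign. Prdx5 and Glrx, the latter also cytosolic, were lower than in the adult at E19, and at P2 they did not pass the test.

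By limma on log2 intensity with an adjusted p under 0.05, 6 of the 9 genes differed between E19 and adult, where 56.6% of all tested genes were called. Of these, 2 were higher, against 31.4% of all genes, and 4 lower, against 25.2%. At P2, 7 of 9 differed from the adult, against a background of 50.7%, with 4 higher (28.8% of all genes) and 3 lower (21.8% of all genes). These shares are near the background and are no result about the 9 genes. The 2 comparisons share the adult arrays and are therefore not independent of each other. Between E19 and P2 limma called 0 of 9, against 6.17% of all genes (2.56% higher and 3.61% lower), and 3 of 9 had an unadjusted p under 0.05 (Glrx, Prdx5 and Prdx6). The median absolute log2 difference of the 9 genes was 0.33 at E19 and 0.38 at P2, beside 0.46 and 0.40 over all tested genes. A difference of over 2-fold that passed the test was seen for 0 of the 9 genes in both comparisons, where 21.8% and 19.0% of all genes had one. The pools of a stage lay close together, the 27 pairs differing by a median of 3.93% and at most 17.3%. The pools of E19 and adult did not overlap for 9 of 9 genes (82.9% of all genes), those of P2 and adult for 7 of 9 (79.3%), and those of E19 and P2 for 3 of 9 (63.0%).

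**Figure D1:**
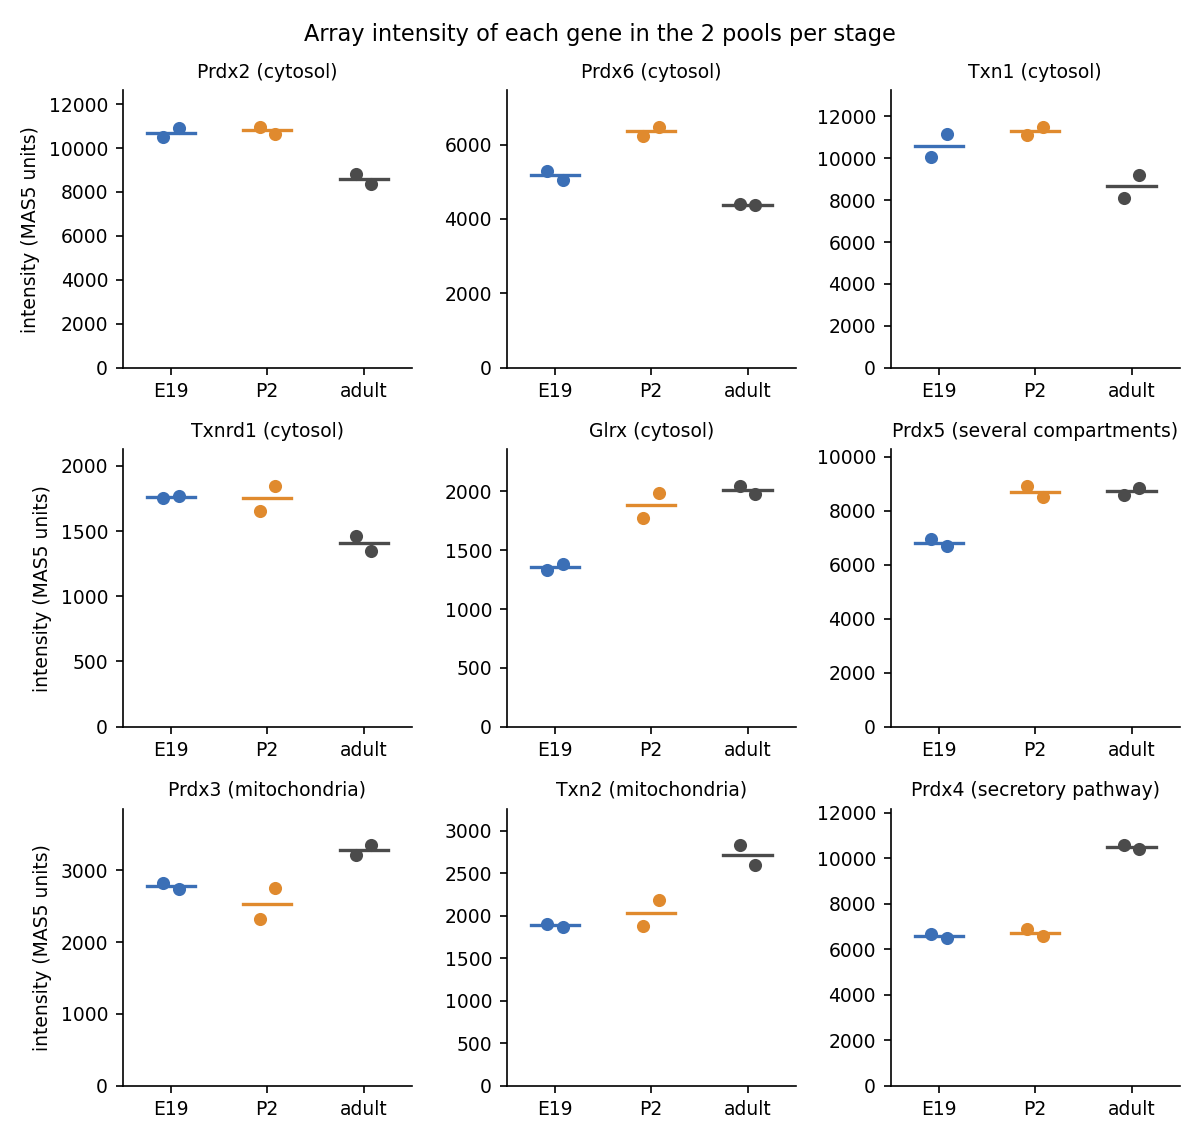
Array intensity in MAS5 units (vertical axes, each starting at 0) of the 9 measured genes in the 2 pools of E19, P2 and adult (points), with the stage mean as a line. The adult pools lie lowest for Prdx2, Prdx6, Txn1 and Txnrd1 and highest for Prdx3, Txn2 and Prdx4, while for Prdx5 and Glrx the E19 pools lie apart below both later stages.

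Prdx4, the peroxiredoxin of the endoplasmic reticulum, which passes oxidising equivalents from peroxide to protein disulfide isomerases, differed most between stages. It read 6651 and 6487 units at E19, 6872 and 6587 at P2 and, for adults, 10603 and 10427. All 4 perinatal pools lay well below the adult pools, and E19 minus P2 was -0.03 (95% interval -0.24 to 0.17). Relative to the adult, Prdx4 was 1.6-fold lower at E19 (log2 difference -0.68, SE 0.08, limma adjusted p = 0.00203) and 1.56-fold lower at P2 (-0.64, SE 0.08, limma adjusted p = 0.00299). It was the only gene of the set whose calls held at both stages under every alternative tried, including the stricter threshold of 0.01 and the removal of any 1 array.

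The mitochondrial pair also read lower before maturity. Txn2, the thioredoxin of the mitochondrial matrix, read 1904 and 1870 units at E19, 1881 and 2183 at P2 and, for adults, 2834 and 2596. The perinatal and adult pools did not overlap. Txn2 was 1.44-fold lower at E19 (log2 -0.52, SE 0.11, limma adjusted p = 0.0127) and 1.34-fold lower at P2 (-0.42, SE 0.11, limma adjusted p = 0.0281). Prdx3, the mitochondrial peroxiredoxin that Txn2 serves, read 2832 and 2744 units at E19, 2317 and 2755 at P2 and, for adults, 3218 and 3360. All perinatal pools lay below both adult pools, yet only the P2 difference passed the test, at 1.3-fold lower (log2 -0.38, SE 0.11, limma adjusted p = 0.0408); at E19 it was -0.24 (95% interval -0.53 to 0.05, limma adjusted p = 0.129). The call of Txn2 at E19 was lost without either E19 array or adult pool 1 (log2 over all removals -0.59 to -0.46), at P2 without any array but P2 pool 2 (-0.53 to -0.31), and that of Prdx3 at P2 without any array but P2 pool 2 (-0.51 to -0.26).

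Of 8 tested genes of mitochondrial content, 2 were higher and 2 lower at E19 (all genes: 31.4% and 25.2%). At P2, 1 was higher and 2 lower (all genes: 28.8% and 21.8%). At E19 both counts fell to 0 without E19 pool 1 and to 1 without E19 pool 2, and without adult pool 1 each was 1, while without adult pool 2 the higher count was 1. At P2 the higher count was 0 without any array but adult pool 2, and the lower count was 1 without either P2 array or adult pool 1. After median centring 4 were lower at E19 and 5 at P2, with 0 higher. Hspa9, the mitochondrial chaperone, was called lower at both stages (log2 -0.37 and -0.55), but the mean over its probe sets gave 0.33 at P2 (limma adjusted p = 0.0445), so its direction there depends on the probe set. Its E19 call was lost without either E19 array or adult pool 1 (-0.41 to -0.33). Tomm20, a receptor of the outer membrane import complex, was higher by 1.49-fold at E19 and by 1.3-fold at P2, whereas Vdac1, the outer membrane channel, was 1.37-fold and 1.31-fold lower. At E19 both calls were lost without E19 pool 1 (limma adjusted p = 0.0518 and 0.0569). At P2 that of Tomm20 was lost without any array but adult pool 2 (log2 0.27 to 0.50) and that of Vdac1 without either P2 array or adult pool 1 (-0.43 to -0.35), and median centring ended both calls of Tomm20 (0.29 and 0.13).

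Most of the cytosolic genes read on the other side of the adult level. Prdx2, a cytosolic peroxidase that is also among the most abundant proteins of red cells, read 10497 and 10901 units at E19, 10973 and 10643 at P2 and, for adults, 8830 and 8378. The 4 perinatal pools were all above the adult pools and did not separate by stage. Prdx2 was 1.24-fold higher at E19 (log2 0.31, SE 0.08, limma adjusted p = 0.0271) and 1.26-fold higher at P2 (0.33, SE 0.08, limma adjusted p = 0.0262). Red cell markers moved in the same direction: 7 of 7 tested were higher at E19 and 6 of 7 at P2 (all genes: 31.4% and 28.8%). The sum of the 12 represented markers was 29712 to 31340 units at E19, 24483 to 24809 at P2 and 17063 to 17065 in the adult. Their part in the Prdx2 difference was not tested.

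Prdx6, which differs from the other peroxiredoxins in having a single catalytic cysteine and also acts on phospholipids, read highest at P2. It read 5288 and 5053 units at E19, 6239 and 6480 at P2 and, for adults, 4396 and 4375. The pools of the 3 stages did not overlap, in the order adult, E19, P2. At P2 Prdx6 exceeded the adult level 1.45-fold (log2 0.54, SE 0.08, limma adjusted p = 0.00537), a call that the removal of no array ended. The E19 value did not pass (log2 0.24, 95% interval 0.03 to 0.45, limma adjusted p = 0.0583), nor did the step from E19 to P2 (E19 minus P2 -0.30, 95% interval -0.51 to -0.09, limma adjusted p = 0.0943).

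Txn1, the cytosolic thioredoxin that reduces peroxiredoxins and ribonucleotide reductase, read 10039 and 11160 units at E19, 11123 and 11512 at P2 and, for adults, 8097 and 9226. All perinatal pools exceeded the adult ones, although the adult pools themselves were far apart. The P2 difference was 1.31-fold (log2 0.39, SE 0.11, limma adjusted p = 0.0351) and that at E19 was 0.29 (95% interval 0.01 to 0.57, limma adjusted p = 0.0724). Txnrd1, its NADPH-dependent reductase, read 1752 and 1768 units at E19, 1652 and 1848 at P2 and, for adults, 1466 and 1345. No perinatal pool fell within the adult values. Txnrd1 was 1.25-fold higher at E19 (log2 0.33, SE 0.10, limma adjusted p = 0.0417) and 1.24-fold at P2 (0.32, SE 0.10), where the adjusted p fell just under the threshold. Its second probe set was dimmer, at 375 to 525 units, and gave log2 differences of 0.24 and 0.23 that did not pass (limma adjusted p = 0.369 and 0.384).

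These higher calls changed with the scaling of the arrays. Centring each array on its median moved the median log2 difference of all tested genes from 0.04 to -0.24 at E19 and from 0.05 to -0.20 at P2, and then 0 of the 9 genes were called higher at either stage. Over all genes that centring turned 3241 higher and 2606 lower calls into 2087 and 4172 at E19, and 2981 and 2255 into 1966 and 3763 at P2. Centring on the tested probe sets left 0 at E19 and 1 at P2, and quantile normalization raised the number to 4 at E19. Under median centring the log2 difference at P2 was 0.28 for Prdx6, 0.13 for Txn1, 0.07 for Prdx2 and 0.06 for Txnrd1, each above the shifted median of all genes. The lower calls among the 9 genes went from 4 to 5 at E19 and from 3 to 4 at P2, as this centring shifted all genes downwards. Quantile normalization, which left the median of all genes near 0, gave 4 and 3 lower calls. The calls of Prdx2 and Txnrd1 at E19 were lost without either E19 or either adult array (log2 0.28 to 0.35 and 0.26 to 0.39), those at P2 without any 1 array (0.29 to 0.37 and 0.23 to 0.40), and that of Txn1 at P2 without any array but adult pool 2 (0.29 to 0.48).

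**Figure D2:**
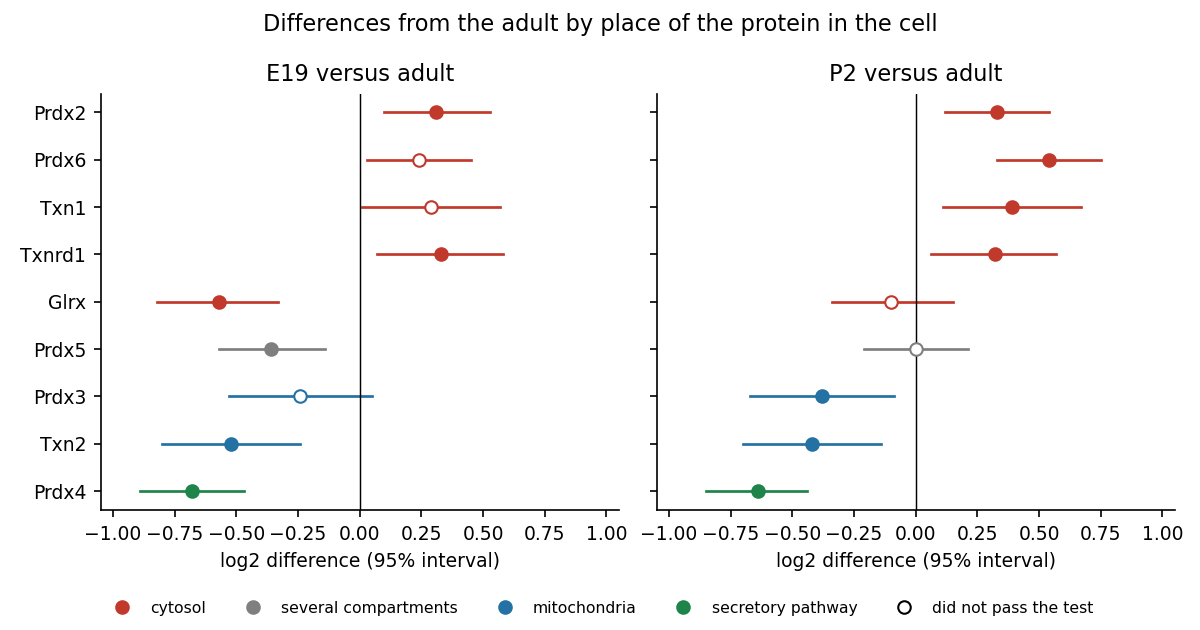
Log2 difference from the adult (horizontal axis, points) with its 95% interval from limma (lines) for the 9 genes, ordered and coloured by the place of the protein, for E19 (left) and P2 (right), 2 pools per stage. Filled points passed the test. At both stages Prdx2, Prdx6, Txn1 and Txnrd1 lie right of 0 and Prdx3, Txn2 and Prdx4 left of it, with Prdx4 lowest at -0.68 and -0.64.

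In the ratio of a cytosolic gene to its mitochondrial counterpart on the same array, any single scaling factor per array cancels. With the adult mean set to 0, the log2 ratio of Txn1 over Txn2 was 0.73 and 0.91 in the E19 pools, 0.89 and 0.73 at P2 and, for adults, -0.16 and 0.16. The ratio was thus 1.76-fold above the adult at E19 and 1.75-fold at P2, with no overlap of pools. That of Prdx2 over Prdx3 was 0.50 and 0.60 at E19, 0.86 and 0.56 at P2 and, for adults, 0.07 and -0.07, or 1.47-fold and 1.64-fold. Quantile normalization, which does not cancel, gave 1.78-fold and 1.84-fold for the first pair and 1.46-fold and 1.71-fold for the second. These ratios show unequal change of the members of each pair and were chosen after the values were known, so they carry no test.

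**Figure D3:**
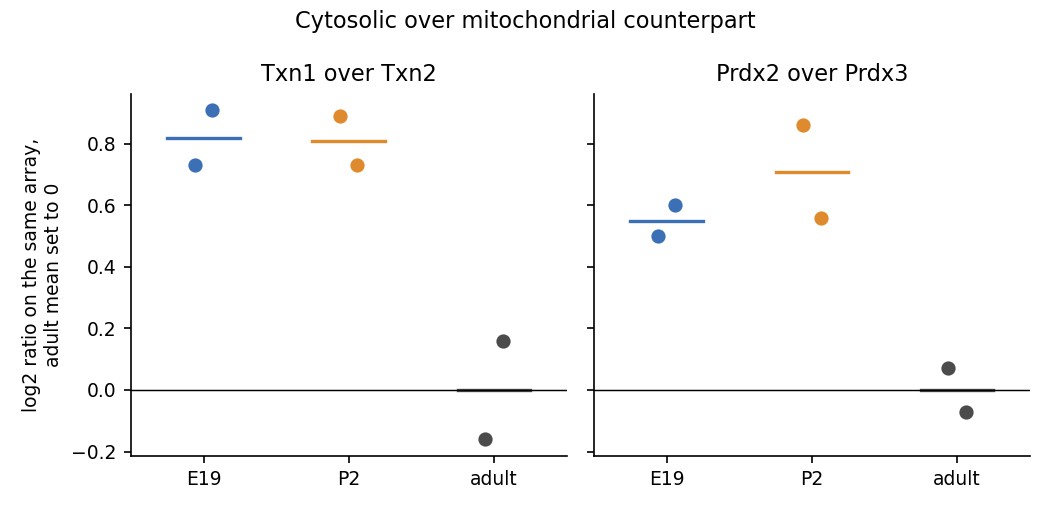
Log2 ratio of Txn1 over Txn2 (left) and of Prdx2 over Prdx3 (right) on each array, with the mean of the 2 adult pools set to 0 (vertical axis). Points are pools and short lines stage means. All E19 and P2 pools lie between 0.50 and 0.91, above the adult pools.

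Prdx5 and Glrx followed neither course, and their E19 pools lay below those of both later stages. Prdx5, a thioredoxin-dependent peroxidase found in mitochondria, peroxisomes and cytosol, read 6944 and 6677 units at E19, 8930 and 8492 at P2 and, for adults, 8590 and 8841. The P2 pools straddled the adult ones, and the E19 pools were apart from both. Prdx5 was 1.28-fold lower at E19 than in the adult (log2 -0.36, SE 0.08, limma adjusted p = 0.0182), while the P2 difference was close to 0 (95% interval -0.21 to 0.21). The E19 call was lost without either E19 array or adult pool 2 (-0.38 to -0.33). Glrx, which removes glutathione from protein thiols, read 1329 and 1380 units at E19, 1777 and 1990 at P2 and, for adults, 2049 and 1978. It was 1.49-fold lower at E19 (log2 -0.57, SE 0.10, limma adjusted p = 0.00604), and at P2 the difference was -0.10 (95% interval -0.34 to 0.15). A second Glrx probe set read 838 and 861 units at E19, 1044 and 1239 at P2 and, for adults, 1089 and 1004. It placed the E19 pools lowest too, but its E19 difference of -0.30 did not pass (limma adjusted p = 0.079). For E19 against P2 directly, Prdx5 differed by -0.35 (limma adjusted p = 0.0709) and Glrx by -0.47 (limma adjusted p = 0.0524), so neither step passed the threshold.

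Against these narrow ranges, the binding partner of thioredoxin stood far apart. Txnip, the thioredoxin-interacting protein, binds the reduced active site of thioredoxin and inhibits it, and also restrains glucose uptake. Its transcripts read 4265 and 5172 units at E19, 7591 and 7445 at P2 and, for adults, 567 and 661. Txnip was 7.67-fold higher at E19 (log2 2.94, SE 0.14, limma adjusted p = 0.000151) and 12.3-fold higher at P2 (3.62, SE 0.14, limma adjusted p = 0.00013), calls that stood under every alternative. The step between E19 and P2, at -0.68, did not pass (limma adjusted p = 0.0515). Srxn1, sulfiredoxin, which rescues overoxidised peroxiredoxins, lay the other way but near background. It read 12.4 and 34.9 units at E19, 30.1 and 18.7 at P2 and, for adults, 126 and 118. As the perinatal pools were under 100 units, only a bound holds, at least 1.22-fold lower at both stages (limma adjusted p = 0.0114 and 0.0166), and the P2 call was lost without P2 pool 2 or either adult array (-2.71 to -2.02).

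Over the list of 10 thioredoxin reductases and regulators that holds these genes, 3 were higher and 1 lower at E19 (all genes: 31.4% and 25.2%). At P2, 3 were higher and 2 lower (all genes: 28.8% and 21.8%). The higher count at E19 was 1 without E19 pool 1 or adult pool 2, 2 without E19 pool 2 and 1 after median centring, where 3 were lower. At P2 it was 1 without any E19 or P2 array and 2 without either adult array, with 0 or 1 lower. Txnip was higher in each of these fits. Txnrd2, the mitochondrial reductase, read 226 to 366 units and did not pass (log2 -0.37 and 0.13, limma adjusted p = 0.105 and 0.538). Gsr, glutathione reductase, read 142 to 218 units, with differences of 0.22 at both stages that did not pass (limma adjusted p = 0.38 and 0.37).

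The other glutaredoxins split among themselves. Glrx5, which assembles iron-sulfur clusters in mitochondria, read 3400 and 3161 units at E19, 4081 and 4614 at P2 and, for adults, 6527 and 6190. Its pools lay in stage order without overlap, 1.94-fold below the adult at E19 (log2 -0.96, limma adjusted p = 0.0015) and 1.46-fold below at P2 (-0.55, limma adjusted p = 0.0103). Glrx3, a cytosolic iron-sulfur glutaredoxin, read 10494 and 11023 units at E19, 8333 and 8759 at P2 and, for adults, 7659 and 7415. It was 1.43-fold higher at E19 (log2 0.51, limma adjusted p = 0.00584; 0.24 and not called after median centring), with 0.18 at P2 (limma adjusted p = 0.134). Glrx2 read 1664 to 2206 units and did not pass at either stage (log2 -0.34 and -0.23).

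Of 9 tested genes of the Nrf2 pathway, 5 were higher, 1 lower and 3 not called at each perinatal stage. Over all tested genes, 31.4% were higher and 25.2% lower at E19, and 28.8% and 21.8% at P2. Nqo1, a quinone reductase, read 4340 and 4194 units at E19, 3726 and 3619 at P2 and, for adults, 1177 and 1151, 3.66-fold and 3.15-fold higher. Slc7a11, the cystine importer that feeds glutathione synthesis, read 1899 and 1808 units at E19, 610 and 208 at P2 and, for adults, 81.1 and 71.7. Since the adult was under 100 units, the excess was at least 18.5-fold at E19, and at P2 at least 3.56-fold, the P2 call being lost without either adult array (log2 1.45 to 3.0 over all removals). Hmox1, haem oxygenase, was 5.53-fold higher at E19 and 2.08-fold at P2, the latter lost without P2 pool 1 (0.78 to 1.33). Nfe2l2, which encodes Nrf2, read 2056 to 2641 units and gave 0.21 and 0.28 (limma adjusted p = 0.133 and 0.0651). Keap1, the adaptor through which Nrf2 is degraded, was 1.68-fold lower at E19 (log2 -0.75, limma adjusted p = 0.00554) and 1.34-fold lower at P2 (-0.42, limma adjusted p = 0.0373), the P2 call being lost without any array but adult pool 1 (-0.54 to -0.30).

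**Figure D4:**
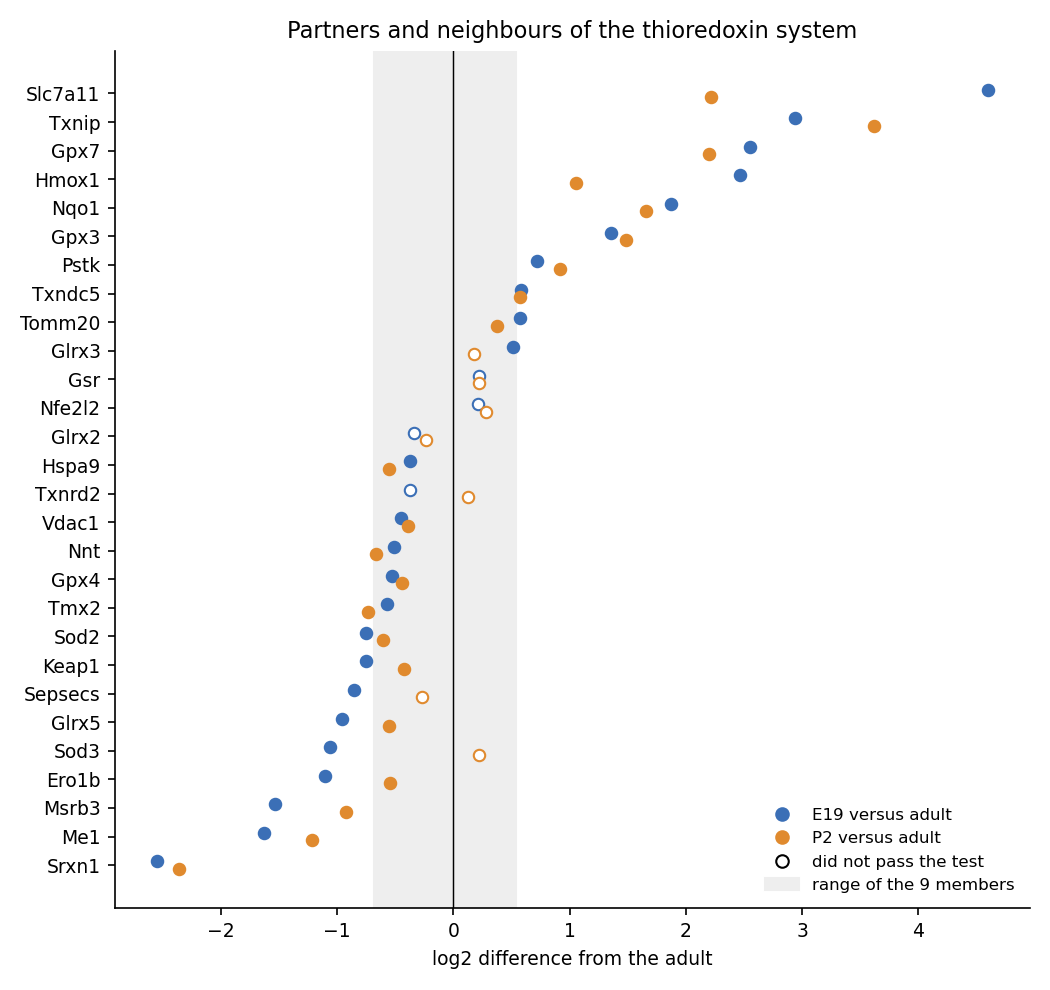
Log2 difference from the adult (horizontal axis) at E19 (blue) and P2 (orange) for a selection of partner and neighbouring genes, ordered by the E19 value, 2 pools per stage. Filled points passed the limma test, and the grey band spans the 9 measured members, from -0.68 to 0.54. Txnip lies at 2.94 and 3.62, far outside that band. The fitted values of Srxn1, Slc7a11 and Gpx3 rest on pools under 100 units.

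Of 7 tested genes of NADPH supply, on which the reductases depend, limma called 3 at E19 and 2 at P2, all of them lower than in the adult. Over all genes, 25.2% were lower at E19 and 21.8% at P2. The 3 at E19 became 1 without either E19 or either adult array, and the 2 at P2 became 4 after median centring. Malic enzyme (Me1) read 1062 and 981 units at E19, 1424 and 1309 at P2 and, for adults, 2962 and 3377, 3.10-fold and 2.32-fold lower. Nnt, the mitochondrial transhydrogenase that provides NADPH to Txn2 and Prdx3, was lower by 1.42-fold at E19 and by 1.58-fold at P2. The E19 call of Nnt was lost without either E19 or either adult array (log2 -0.55 to -0.47).

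Around Prdx4, the list of 19 genes of thiol oxidation in the endoplasmic reticulum divided. At E19, 5 were higher and 9 lower (all genes: 31.4% and 25.2%), and at P2, 2 were higher and 6 lower (all genes: 28.8% and 21.8%). Without E19 pool 1 the E19 counts were 1 and 5, without E19 pool 2 they were 1 and 4, and without adult pool 2 they were 2 and 5, while after median centring 1 was higher at E19. At P2 the higher count was 1 without P2 pool 1 and 3 without P2 pool 2, and after median centring 0 were higher and 10 lower. Ero1b, an oxidase of protein disulfide isomerase, read 658 and 565 units at E19, 869 and 934 at P2 and, for adults, 1278 and 1346, 2.15-fold and 1.46-fold lower. Its P2 call was lost without P2 pool 1 or adult pool 2 (log2 -0.59 to -0.49). Tmx2, a membrane-bound thioredoxin-related protein, was 1.49-fold and 1.66-fold lower. The largest rise of the list was that of Pdia5 at E19, 3.34-fold (log2 1.74, limma adjusted p = 0.0108). That call was lost without either E19 array (1.73 to 1.75 over all removals), and Pdia5 was not called at P2. Txndc5, a disulfide isomerase, was higher by 1.49-fold and 1.48-fold (0.30 and 0.31 on the log2 scale, and not called, after median centring).

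Other enzymes that remove peroxide and superoxide were divided as well. Of 9 genes tested, 2 were higher and 5 lower at both stages (all genes: 31.4% and 25.2% at E19, 28.8% and 21.8% at P2). The lower count was 3 without either E19 array at E19, and at P2 it was 2 or 3 without any 1 array and 3 with quantile normalization. Gpx7, a peroxidase of the endoplasmic reticulum, read 1508 and 1322 units at E19, 1143 and 1071 at P2 and, for adults, 235 and 246. It was 5.87-fold and 4.60-fold higher. Gpx3, the secreted peroxidase, read 181 to 217 units perinatally and under 100 in the adult, at least 1.88-fold and at least 2.06-fold higher. Gpx4, which reduces lipid peroxides, was 1.45-fold and 1.35-fold lower. Sod2, the mitochondrial dismutase, read 2091 and 1835 units at E19, 1949 and 2424 at P2 and, for adults, 3368 and 3216. It was 1.68-fold and 1.51-fold lower, the same side as Prdx3 and Txn2, and its call was lost at E19 without E19 pool 2 (log2 -0.84 to -0.65 over all removals) and at P2 without P2 pool 1 or either adult array (-0.76 to -0.44). Sod3, the extracellular dismutase, read 1442 and 1435 units at E19, 2994 and 4053 at P2 and, for adults, 2944 and 3039. It was low at E19 against both the adult (log2 -1.06, limma adjusted p = 0.00413) and P2 (-1.28, limma adjusted p = 0.0236, a call lost without any 1 of the 4 perinatal arrays, -1.49 to -1.06), and at P2 it did not pass against the adult (0.22, limma adjusted p = 0.291).

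In repair of oxidised methionine, 2 of 4 reductase genes were higher and 1 lower at E19 (all genes: 31.4% and 25.2%). At P2, 1 was higher and 1 lower (all genes: 28.8% and 21.8%). The higher count at E19 was 0 without E19 pool 1 or after median centring, and 1 without either P2 or either adult array. At P2 it was 0 without P2 pool 2 or either adult array, and after median centring or quantile normalization. Msrb3 read 511 and 539 units at E19, 798 and 804 at P2 and, for adults, 1397 and 1637, 2.88-fold and 1.89-fold lower. In the synthesis of selenocysteine, the residue that thioredoxin reductases need, 1 of 7 genes was higher and 2 lower at E19. At P2, 1 was higher and 1 lower, beside the same shares of all genes. The lower count was 1 at E19 without either E19 or either adult array, and at P2 it was 0 without any E19 or adult array and 3 after median centring. Pstk, the kinase of its transfer RNA, was 1.64-fold and 1.89-fold higher, and Sepsecs, which completes the residue, was 1.81-fold lower at E19, with -0.27 at P2 (limma adjusted p = 0.072).

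Prdx4 spanned the widest range of stage means, 0.68 on the log2 scale, and the genes most like it were sought by the root mean square distance of log2 values over the 6 arrays, each gene centred on its own mean. Among 10325 other tested genes, the closest was Atp6v1a, a subunit of the vacuolar proton pump, at a distance of 0.016. It read 4839 and 4793 units at E19, 5093 and 4900 at P2 and, for adults, 7801 and 7520. Ns5atp4 followed at 0.027, Dstyk at 0.033, and Fpgt and Uvrag at 0.038 each.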

How the data were processed

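Total RNA of 2 pools per stage was amplified and hybridised to the Affymetrix Rat Genome 230 2.0 array. The deposited values are linear intensities, which the authors computed with the MAS5 algorithm in Affymetrix Expression Console; versions and scaling target are not given in the sources used here. Of 31099 probe sets, 57 controls were left out, and 20826 were annotated to a single gene, 436 to several and 9780 to none; symbols were updated to RefSeq (GRCr8). Array medians ran from 100.4 to 125.9 units and 50.1% to 53.6% of values reached 100 units. With 2 arrays per stage, their number limits the precision.

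The 17808 probe sets whose mean reached 100 units at any stage entered limma 3.58.1 (R 4.3.3) as log2 intensity. All 6 arrays were fitted together with a mean for each stage (3 residual and 2.15 prior degrees of freedom), and p-values of all 17808 were adjusted after Benjamini and Hochberg. A fold below 100 units is given as a bound against 100. The code was tested on simulated data. Named partner genes were taken, per list, from those with the largest passing change, up to 2 per direction and comparison, plus 9 fixed ones. Not all that qualified are described: Tmx4, Txndc12, Msra, Msrb2, Sesn1, Nxn, Tfam and Secisbp2 were left out. The genes and lists were chosen with earlier results of these data known. Alternatives changed the filter, scaling, low values, spread estimate, samples, probe set, threshold and replicate block; centring on tested probe sets and the second probe sets were added after seeing the data.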

Additional observations from a re-analysis of the deposited data

How the results depend on the processing

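Each limit rests on 2 pools per stage. For E19 against adult, 2 genes were called higher in the fit reported; the number was 0 with no filter, with centring on the median or on the median of tested probe sets, with the replicate block and at a threshold of 0.01, 4 with quantile normalization and with an intensity trend, and 0 to 2 when 1 array was left out. The 4 lower genes became 2 with no filter and at the threshold of 0.01, and 2 to 4 when 1 array was left out. For P2 against adult, the 4 higher genes became 1 with no filter, with centring on tested probe sets, with only the 2 stages compared and at the threshold of 0.01, 0 with median centring, 2 with the replicate block, and 1 to 2 when 1 array was left out. The 3 lower genes became 1 with no filter, with only the 2 stages compared, with the replicate block and at the threshold of 0.01, and 1 to 3 when 1 array was left out. For E19 against P2, 0 lower genes became 2 with a filter at 200 units, with values under 100 set to 100 and with an offset of 50, 3 with an intensity trend and 1 with quantile normalization. The cause was not tested.

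Of the differences given here, the called one of Hspa9 at P2 changed sign, to 0.33 as the mean over probe sets, and so did these uncalled ones. Under median centring they were -0.04 for Prdx6 at E19, -0.01 for Txnrd1 between E19 and P2, -0.13 for Txnrd2 at P2, -0.06 and -0.03 for Gsr at E19 and P2, -0.07 for Glrx3 at P2, -0.07 for Nfe2l2 at E19 and -0.04 for Sod3 at P2. Under quantile normalization they were 0.10 for Prdx5 at P2, -0.0041 for Txnrd1 between E19 and P2, -0.02 for Txnrd2 at P2, and -0.02 and -0.01 for Gsr at E19 and P2. Glrx at P2 was 0.01 as the mean over probe sets and 0.12 with the other probe set. Leaving out 1 array gave -0.04 to 0.01 for Prdx2 between E19 and P2, -0.04 to 0.04 for Prdx5 at P2, -0.21 to 0.0045 for Txn2 and -0.07 to 0.09 for Txnrd1 between E19 and P2, and -0.0025 to 0.26 for Txnrd2 at P2.

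Samples with the same replicate number did not deviate together (correlations of -0.0478, -0.0429 and -0.0172 between stages), so the numbers were not taken as pairs. With the replicate block, the calls between E19 and P2 over all genes went from 265 higher and 373 lower to 22 and 37; they were 0 and 0 with no filter and 701 and 904 with an intensity trend. Of the differences of single member genes under the alternatives, 400 kept direction and side of the threshold, 87 lost the call, 20 gained one and 12 changed sign. With no filter, which adjusts over more probe sets, the P2 calls of Srxn1, Keap1, Slc7a11, Glrx5, Ero1b, Sod2, Gpx4, Vdac1 and Tomm20 and the E19 calls of Nnt and Hspa9 were lost. The call of Sod3 between E19 and P2 was lost too.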
